A study of Mus musculus with 275 samples.

Results

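The opioid receptor genes and the cannabinoid receptor gene Cnr1 were followed in the striatum of mice bred for a strong or a weak cataleptic response to haloperidol. The 5 genes chosen were Oprm1, Oprd1, Oprk1, Oprl1 and Cnr1, and all probes annotated to them were taken. Of 16593 genes with a probe on the array, 4 were members, with 7 of the 25697 probes: 1 for Oprd1 (ILMN_1223207), 1 for Oprk1 (ILMN_1226095), 3 for Oprl1 (ILMN_1235369, ILMN_2683352 and ILMN_2807572) and 2 for Cnr1 (ILMN_2637188 and ILMN_2670261). No probe was annotated to Oprm1, the mu receptor, which was therefore not analysed here.

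Haloperidol blocks D2-like dopamine receptors, and catalepsy is the failure to correct an imposed posture. From each of 3 populations, a High (responsive) line and a Low (non-responsive) line had been bred over a few generations: an F2 cross, HS4, a stock made from C57BL/6J, DBA/2J, BALB/cJ and LP/J mice, and HS-CC, a stock made from inbred strains that included the wild-derived CAST/EiJ, PWK/PhJ and WSB/EiJ. Striatal RNA of 1 animal was hybridised to each Illumina bead array, with 41 High and 42 Low animals in F2, 48 High and 48 Low in HS4, and 48 High and 48 Low in HS-CC. The labels give no age, and a sex only in HS4. A line is a bred population, so a difference between High and Low animals can follow any locus that drifted apart during breeding as well as a selected one.

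Opioid receptors and the CB1 receptor encoded by Cnr1 are G protein-coupled receptors of the inhibitory Gi/o class, which lower cyclic AMP and neurotransmitter release. Their ligands are made in the striatum itself: enkephalins and dynorphins from spiny projection neurons, nociceptin for the Oprl1 receptor, and the lipid endocannabinoids that spiny neurons release onto the terminals reaching them. CB1 is one of the most abundant receptors of the basal ganglia, carried by spiny neurons and by some interneurons and cortical terminals, and kappa receptors, encoded by Oprk1, sit on dopamine terminals and on part of the spiny neurons.

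Values were used as deposited, on a log2-like scale normalised within each selection, so levels were not compared between selections, and between probes only to choose the probe of a gene with the most signal over background. Background was taken on each array as the 95th percentile of 1341 probes for olfactory, vomeronasal and taste receptors, and a probe counted as expressed when it was above this on at least 25 percent of the arrays of a selection (15300, 15219 and 15119 probes in F2, HS4 and HS-CC). A few arrays resembled the others poorly, with a mean correlation as low as 0.933 (F2), 0.525 (HS4) and 0.643 (HS-CC). Arrays more than 2.5 SD below the mean were left out repeatedly for the covariation, leaving 71, 75 and 87 animals, and were kept for the comparison of lines. In HS4 the labelled sex matched the level of the Y-linked gene Eif2s3y on 41 of 96 arrays only, across a gap of 1.01 that set 46 arrays above and 50 below. HS4 arrays go by their labels in what follows, and High and Low there mean as labelled. Line and family in HS4 come from the same labels as sex, and whether they match the arrays could not be checked. If they do not, HS4 differences between lines, values within a line and family terms carry little information.

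Oprd1, the delta receptor, lay at background in every line. Its probe was above background in 3 of 41 High animals and 4 of 42 Low animals of F2, on 0 of 48 arrays labelled High and 1 of 48 labelled Low in HS4, and in 5 of 48 High animals and 2 of 48 Low animals of HS-CC. It did not count as expressed in any selection and so was not among the probes tested for High against Low. In a fit over all probes its differences were −0.01, 0.01 and −0.00 in F2, HS4 and HS-CC (limma adjusted p = 0.970, 0.970 and 0.983). Its median minus background on the log2 scale was −0.07 (F2 High), −0.05 (F2 Low), −0.09 (HS4 High), −0.10 (HS4 Low), −0.09 (HS-CC High) and −0.07 (HS-CC Low). These medians bound the signal of the probe and do not show that the receptor is absent.

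Oprk1 was expressed and dim. Its median minus background was 0.34 (F2 High), 0.36 (F2 Low), 0.13 (HS4 High), 0.11 (HS4 Low), 0.34 (HS-CC High) and 0.31 (HS-CC Low). Its log2 level had a lowest value of 9.10, a median of 9.39 and a highest value of 9.65 in F2 High animals, against 9.21, 9.40 and 9.63 in F2 Low animals. In HS4 the values were 9.06, 9.36 and 11.29 on arrays labelled High, against 9.05, 9.31 and 10.46 on arrays labelled Low. HS-CC High animals had 9.18, 9.60 and 11.68, against 9.20, 9.56 and 10.01 in HS-CC Low animals. The lines overlapped nearly completely in all 3 selections. The highest values of HS4 and of HS-CC High belonged to outlying arrays, and without the arrays found in a single round the SD dropped to 0.12 against 0.34 (HS4 High) and to 0.14 against 0.33 (HS-CC High).

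Oprl1, the receptor of nociceptin, stood well above background with probe ILMN_2807572, at a median of 1.09 (F2 High), 1.03 (F2 Low), 1.05 (HS4 High), 1.10 (HS4 Low), 1.21 (HS-CC High) and 1.19 (HS-CC Low) above it. The lowest, median and highest log2 levels were 9.41, 10.14 and 10.36 in F2 High animals, against 9.21, 10.06 and 10.43 in F2 Low animals. They were 9.08, 10.29 and 10.96 on arrays labelled HS4 High, against 9.69, 10.34 and 11.30 on arrays labelled HS4 Low. In HS-CC they were 10.12, 10.49 and 10.80 in High animals, against 10.19, 10.45 and 10.79 in Low animals. No selection separated its lines. Of the other probes, ILMN_2683352 exceeded background by a median of 0.35 to 0.39 over the 6 lines, and ILMN_1235369 lay at the background itself, above it on 21 to 25 arrays of a line in HS4 and HS-CC.

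Cnr1 was also expressed with both probes. With ILMN_2670261 the lowest, median and highest log2 levels were 9.20, 9.56 and 10.08 in F2 High animals, against 9.18, 9.49 and 10.11 in F2 Low animals. Arrays labelled HS4 High had 9.08, 9.32 and 10.40, against 9.10, 9.30 and 10.97 on arrays labelled HS4 Low. HS-CC High animals had 9.20, 9.82 and 10.13, against 9.27, 9.86 and 10.40 in HS-CC Low animals. The ranges overlapped in each selection. This probe was above background on 40 of 48 arrays labelled High and 39 of 48 labelled Low in HS4, and on nearly every array elsewhere. Its median minus background was 0.49 (F2 High), 0.46 (F2 Low), 0.11 (HS4 High), 0.08 (HS4 Low), 0.56 (HS-CC High) and 0.60 (HS-CC Low), so it was dim in HS4. The second probe, ILMN_2637188, was above it on 17 of 48 arrays labelled High and 18 of 48 labelled Low in HS4, on 29 of 41 High and 31 of 42 Low arrays in F2, and on 33 of 48 arrays of either line in HS-CC.

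**Figure D1:**
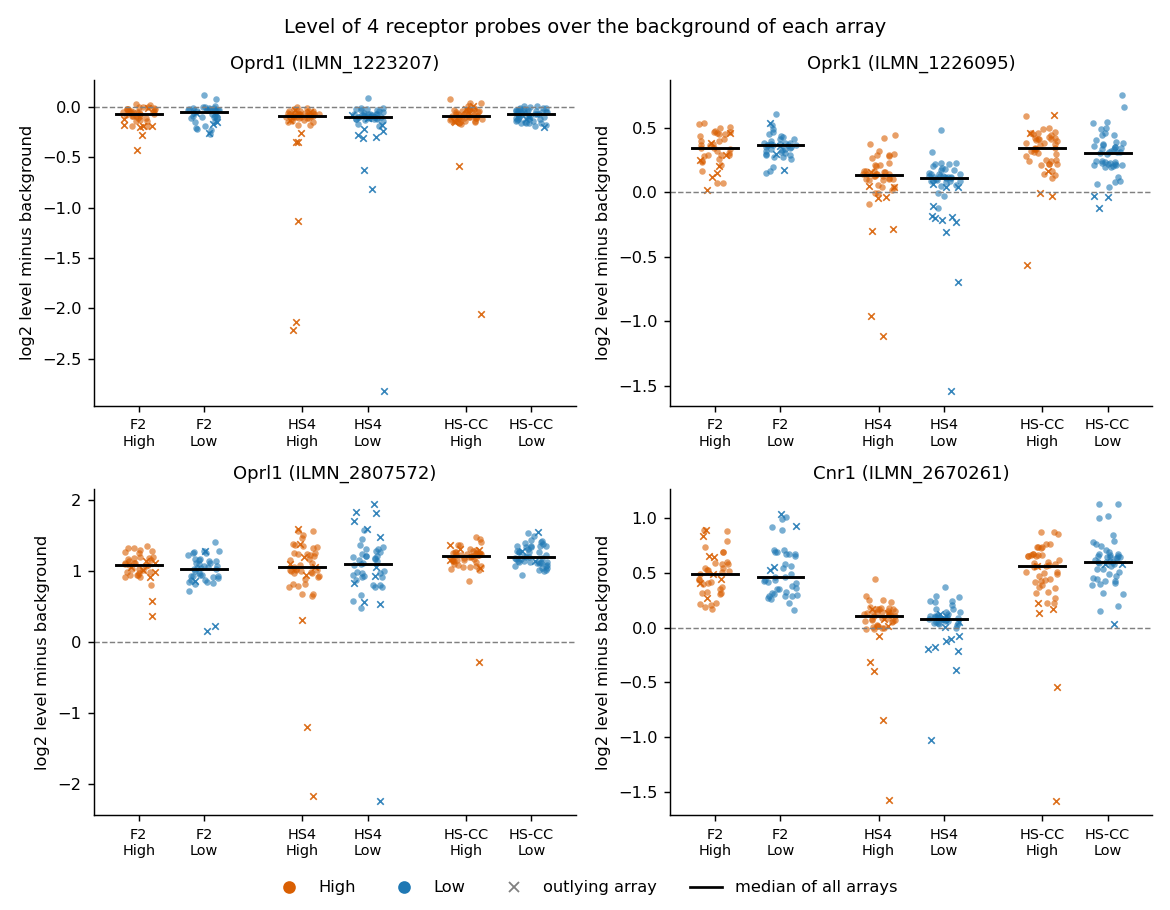
Log2 level of the chosen probe of Oprd1, Oprk1, Oprl1 and Cnr1 minus the background of the same array, for each animal of the High (orange) and Low (blue) lines of F2, HS4 (as labelled) and HS-CC. Crosses are outlying arrays and bars are medians; the medians of Oprd1 sit under the dashed background line, those of Oprl1 about 1 unit above it, and High and Low overlap in every panel.

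No member differed detectably between the High and the Low line. Among the 6 expressed probes, 0 passed a false discovery rate of 0.1 in any selection by limma with Benjamini-Hochberg adjustment over all expressed probes. In the same fits 0.922% (F2), 0.046% (HS4) and 3.41% (HS-CC) of the probes passed, so a count of 0 among 6 probes is close to that background. At an unadjusted p under 0.05, 1 of the 18 member tests passed, against 8.76%, 3.22% and 12.3% of all expressed probes in F2, HS4 and HS-CC. The median difference of the 6 probes was −0.00494 (F2), 0.0324 (HS4) and −0.00279 (HS-CC), beside −0.000725, −0.00915 and −0.00325 over all expressed probes. The p-values measure the spread between animals, and animals of a line share ancestors.

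For Oprk1, levels averaged 9.38 ± 0.13 in High animals of F2 and 9.40 ± 0.10 in its Low animals (SD, n = 41 and 42), a log2 difference of −0.02 (standard error 0.03, limma adjusted p = 0.907). The estimate in HS4 as labelled was 0.09, with a 95% interval of −0.03 to 0.20, and in HS-CC it was 0.06, with an interval of −0.04 to 0.17. Both estimates were larger with the outlying arrays than without those found in a single round, when they were 0.05 in HS4 (interval −0.00 to 0.10) and 0.02 in HS-CC (−0.04 to 0.08). For Oprl1 ILMN_2807572 the F2 difference was 0.07 (interval −0.02 to 0.15), that of HS4 −0.04 (−0.17 to 0.09) and that of HS-CC −0.01 (−0.06 to 0.05). The probe ILMN_1235369, at background, gave the single unadjusted p under 0.05 of the family, in HS4 as labelled, at a difference of 0.04 (standard error 0.02, p = 0.0474, limma adjusted p = 0.989). The other Oprl1 probes gave 0.07 and −0.04 in that selection. With outlying arrays left out repeatedly the 3 probes were at 0.01 (p = 0.479), 0.04 and 0.04, so neither that p nor the negative sign held after repeated removal. After a single round ILMN_2807572 still averaged less on arrays labelled High, at 10.32 against 10.35 on those labelled Low. ILMN_1235369 then averaged 9.21 on arrays labelled High and 9.19 on those labelled Low.

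Cnr1 had the smallest adjusted p of the members. With ILMN_2670261 levels averaged 9.78 ± 0.21 in High animals of HS-CC and 9.86 ± 0.23 in its Low animals (SD, n = 48 each), a difference of −0.08 (standard error 0.04, limma adjusted p = 0.491), which did not pass. The other Cnr1 probe gave −0.01 in HS-CC (interval −0.06 to 0.04). In F2 both probes gave differences under 0, −0.02 (interval −0.12 to 0.08) and −0.05 (interval −0.11 to 0.01). In HS4 as labelled they were 0.02 and −0.01. The High minus Low effects were also set against each other between selections, with 0 of 6 probes past the threshold in each of the 3 contrasts, beside 0.0429% (F2 minus HS4), 1.04% (F2 minus HS-CC) and 0.829% (HS4 minus HS-CC) of 13994 probes. The smallest adjusted p of these was 0.785 (limma), and the smallest unadjusted p was 0.108, for Cnr1 in HS4 against HS-CC.

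**Figure D2:**
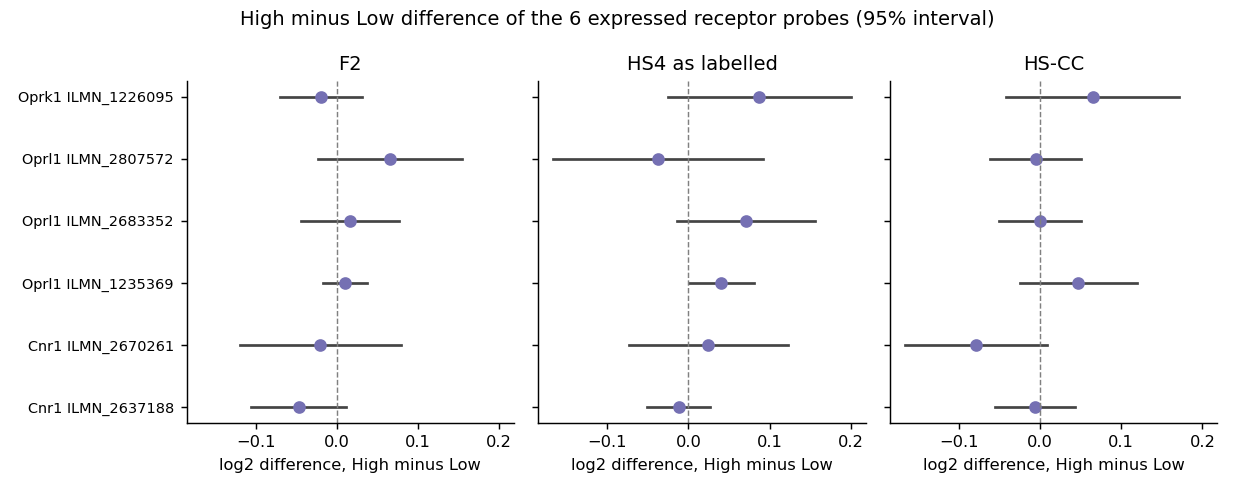
High minus Low difference on the log2 scale (point) with its 95% interval (line) for the 6 expressed probes of Oprk1, Oprl1 and Cnr1 in F2, HS4 as labelled and HS-CC. The estimates lie between −0.08 and 0.09, and 17 of the 18 intervals hold 0.

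Few probes of ligand, enzyme or coupling genes differed between the lines. Of the 4 opioid peptide genes listed (Penk, Pdyn, Pomc and Pnoc) only Pdyn, the precursor of the dynorphins that act on the kappa receptor, was expressed, with 2 probes, and 0 passed in any selection; Penk had no annotated probe. Pdyn ILMN_2783873 averaged 13.13 ± 0.32 in High animals of F2 and 13.01 ± 0.28 in its Low animals, a difference of 0.12 (standard error 0.07, adjusted p = 0.619). Of the enzymes that make or break down endocannabinoids, 15 probes were expressed in F2 and 16 in each other selection, and 1 passed, in HS-CC. It was a probe of Gde1, a phosphodiesterase that can release N-acylethanolamines, at 12.61 ± 0.37 in High animals of HS-CC and 12.90 ± 0.39 in its Low animals, a difference of −0.28 (standard error 0.08, limma adjusted p = 0.0232), where 2.22% of all expressed probes passed as lower in High. The other Gde1 probes gave −0.03 and −0.06 and did not pass. Mgll, which hydrolyses 2-arachidonoylglycerol, gave 0.10 and 0.09 with its 2 probes of smallest p in F2 (adjusted p = 0.402 and 0.449). Cnr2, Gpr18 and Trpv1 had no expressed probe in any selection.

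Of the genes that couple these receptors to their effectors, 19 probes were expressed in F2 and HS-CC and 20 in HS4, and 2 passed, both in F2 and both of Arrb1, a beta-arrestin that ends receptor signalling. ILMN_2753077 averaged 8.97 ± 0.11 in High animals of F2 and 9.07 ± 0.13 in its Low animals, a difference of −0.10 (standard error 0.03, limma adjusted p = 0.0348), where 0.569% of all expressed probes passed as lower in High. ILMN_3096335 averaged 9.88 ± 0.12 in High and 9.98 ± 0.12 in Low animals of F2, also at −0.10 (adjusted p = 0.0513). The other 3 Arrb1 probes were at −0.05, −0.04 and −0.02 in F2 and did not pass. No Arrb1 probe passed in HS4 (differences of 0.00 to 0.07) or HS-CC (−0.05 to −0.00). Among the spiny neuron markers, which the receptors were set against below, 1 of 13 probes passed, Bcl11b in F2, at −0.28 (standard error 0.06, adjusted p = 0.00737). Of 9 GABA interneuron probes, 1 was higher in F2 High animals, Npy by 0.16 (adjusted p = 0.0719), where 0.353% of all expressed probes passed as higher, and 1 in HS-CC High animals, Sst by 0.21 (adjusted p = 0.0630), where 1.19% did. Of 10 astrocyte probes in HS-CC 2 were lower in High, with differences of −0.10 for Aldh1l1 (adjusted p = 0.0350) and −0.20 for Slc1a2 (adjusted p = 0.0991), of which 1 passed without outlying arrays, beside the 2.22% of all expressed probes, and the other marker lists (cholinergic, striosome, matrix, cortical, choroid plexus, oligodendrocyte, microglia and hypothalamus) held 0 calls.

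Some receptors varied together across the animals of a line. After the line means were removed, 18 relations among the 4 genes, 6 in each selection, were computed with the chosen probe of each gene, and 5 passed a false discovery rate of 0.1 in a permutation test within lines. The share of all probe pairs that would pass was not computed. Oprl1 and Cnr1 ran against each other. Their Pearson r was −0.364 in F2 (n = 71, permutation p = 0.00217, adjusted p = 0.0128) and −0.566 in HS4 (n = 75, p = 1e-05, the smallest that the permutations can give, adjusted p = 0.00018). In HS-CC it was −0.192 (n = 87, permutation p = 0.0808, adjusted p = 0.182) and did not pass. Spearman's rho was −0.387 (permutation p = 0.00097), −0.522 (2e-05) and −0.186 (0.0851) in F2, HS4 and HS-CC, and r without the 2 animals farthest from the median of Oprl1 was −0.334, −0.541 and −0.209. Among all other named probes expressed in every selection, the 5th percentile of r with Oprl1 was −0.377 (F2), −0.545 (HS4) and −0.324 (HS-CC). With Cnr1 it was −0.386, −0.366 and −0.274. The r of the pair lay beyond both percentiles in HS4 and within both in F2 and HS-CC. Animals of HS4 came from 32 labelled families, 16 in either line, so they are not fully independent, which these p-values do not take into account.

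The negative relation had the same sign within lines. In High animals alone r was −0.404 (F2), −0.615 (HS4) and −0.215 (HS-CC), and in Low animals alone it was −0.342, −0.507 and −0.178. Of these 6 values, those of F2 High and of both HS4 lines passed in their own family of relations (adjusted p = 0.0827, 0.000180 and 0.0256). With all arrays kept, r was −0.296, −0.474 and −0.326 in F2, HS4 and HS-CC, and all 3 passed. The other Cnr1 probe gave −0.31, −0.37 and −0.08 with the same Oprl1 probe. The other Oprl1 probes gave values closer to 0 with Cnr1 ILMN_2670261, −0.18, −0.20 and 0.03 for ILMN_2683352 and −0.11, −0.04 and −0.05 for ILMN_1235369. The 2 Cnr1 probes tracked each other at r of 0.66, 0.61 and 0.44, whereas Oprl1 ILMN_2683352 and ILMN_2807572 did so at 0.35, 0.17 and −0.02. The pair of Oprl1 ILMN_2683352 and Cnr1 ILMN_2637188 gave −0.42, −0.16 and −0.02, and values for these other probe pairs were not tested.

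**Figure D3:**
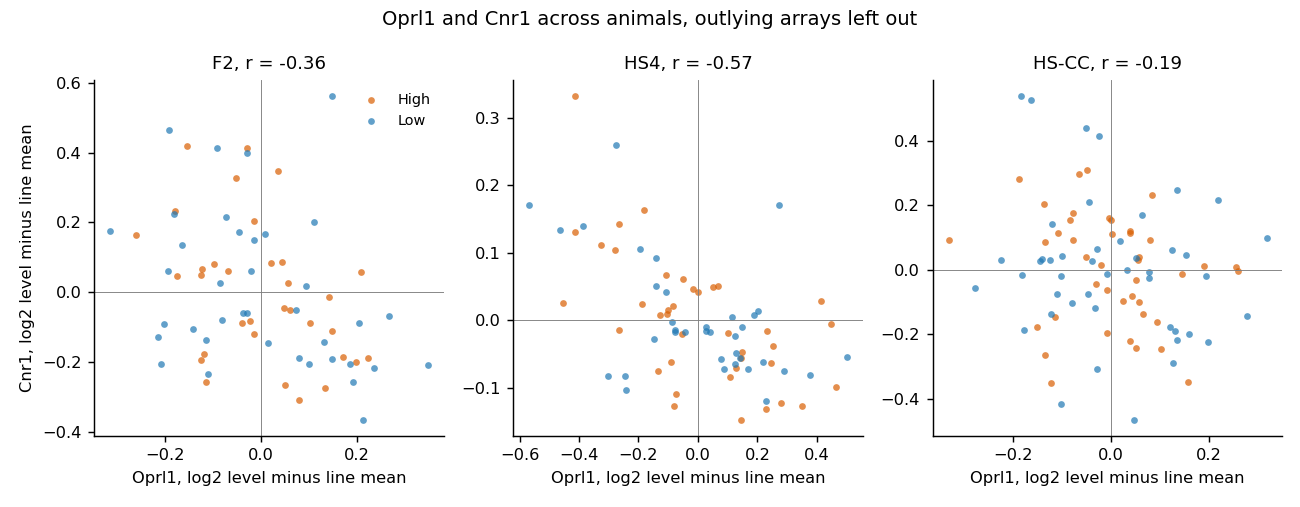
Log2 level of Cnr1 (ILMN_2670261) against that of Oprl1 (ILMN_2807572), each minus its line mean, for the animals of F2, HS4 and HS-CC left after outlying arrays were removed, with High in orange and Low in blue. Points slope down in F2 (r = −0.364) and HS4 (r = −0.566) and scatter widely in HS-CC (r = −0.192).

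Oprk1 and Cnr1 rose and fell together in HS-CC, with r = 0.382 (n = 87, permutation p = 0.00047, adjusted p = 0.00423), rho = 0.334 (p = 0.00186) and r = 0.342 without the 2 farthest animals. In F2 r was −0.175 (permutation p = 0.138, adjusted p = 0.265) and in HS4 −0.232 (permutation p = 0.0478, adjusted p = 0.144), and neither passed. This relation was that of Cnr1 ILMN_2670261, and in HS-CC r was 0.03 with ILMN_2637188. Within HS-CC it held at 0.350 in High animals alone (adjusted p = 0.0827) and at 0.399 in Low animals alone (adjusted p = 0.0585). Outlying arrays decided the HS4 value, since r was 0.692 with all arrays, −0.05 after a single round of removal and −0.232 after repeated removal. In HS-CC, r with all arrays was 0.184 (adjusted p = 0.104) and did not pass, whereas it was 0.503 once the 1 High array found in a single round was left out. With the other Cnr1 probe the r of Oprk1 was −0.38 in F2 and −0.27 in HS4.

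**Figure D4:**
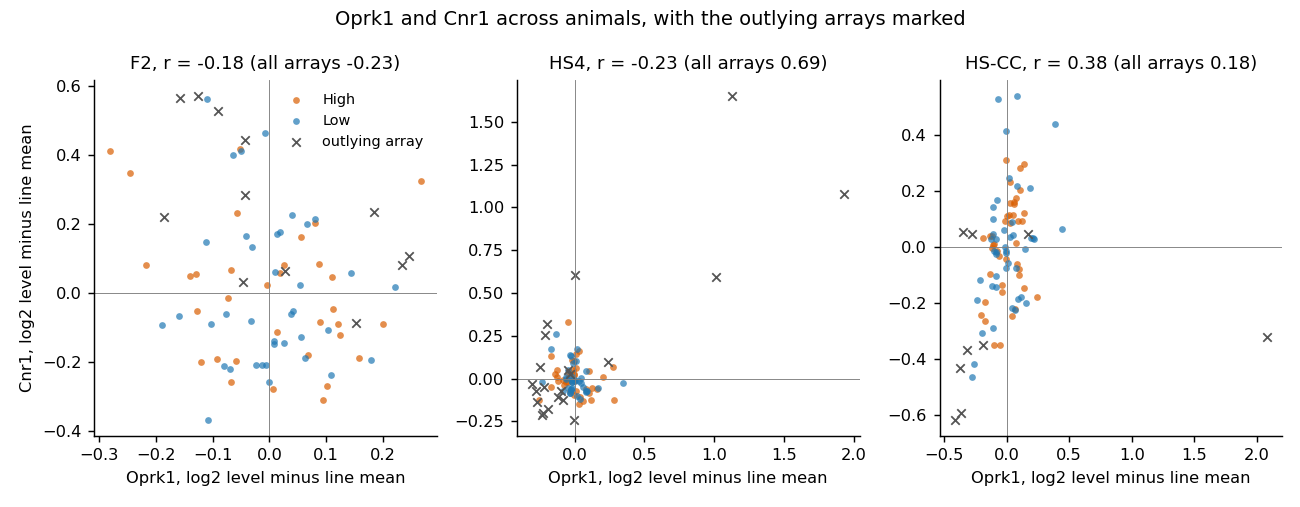
Log2 level of Cnr1 (ILMN_2670261) against that of Oprk1 (ILMN_1226095), each minus the line mean of the animals kept, in F2, HS4 and HS-CC, with High in orange, Low in blue and outlying arrays as crosses. A few crosses far from the rest carry the r of 0.692 over all HS4 arrays, and without crosses r is −0.175, −0.232 and 0.382.

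Oprd1, although at background, gave the remaining calls, both in HS4. Its r with Cnr1 was 0.348 (n = 75, permutation p = 0.00285, adjusted p = 0.0128; rho = 0.342, p = 0.00274) and 0.268 without the 2 farthest animals. Its r with Oprl1 was −0.303 (n = 75, permutation p = 0.00852, adjusted p = 0.0307), with rho of −0.234 (p = 0.0445) and −0.151 without the 2 farthest animals, so it rested in part on them. Because the Oprd1 probe was above background on 1 of 96 HS4 arrays, these values describe the probe and not the receptor. The other pairs did not pass.

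The genes whose levels followed those of each receptor most closely were ranked by the mean of the 3 selections' Fisher-transformed r among about 13180 other expressed and named probes, as a description without a test. For Cnr1 the first was Pde10a, the striatal phosphodiesterase of spiny neurons, with r of 0.715, 0.617 and 0.690 in F2, HS4 and HS-CC. Kcnd2, a potassium channel subunit, followed at 0.711, 0.534 and 0.698, and then Smpd3, Fam78a and Rgs7bp. The 5th and 95th percentiles over all these probes were −0.386 and 0.405 (F2), −0.366 and 0.369 (HS4) and −0.274 and 0.281 (HS-CC). At the other end stood Ly6h, with 2 probes at −0.831, −0.484 and −0.414 and at −0.776, −0.485 and −0.321, Dlx1, a transcription factor of interneurons, at −0.687, −0.566 and −0.447, and Lrrn3 and Dyrk3.

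Oprl1 was followed most closely by Nap1l5, with r of 0.572, 0.823 and 0.606, and by Elavl4, an RNA-binding protein of neurons, Slc39a6, Herc3 and Cadps, which primes dense-core vesicles. Its lowest partners were Nomo1 at −0.601, −0.716 and −0.563, Asphd2, Ppp1ca, Pdpk1 and Gpx1. For Oprk1 the first were Pcdh17, a protocadherin, at 0.324, 0.638 and 0.570, and Gnb4, a G protein beta subunit, at 0.580, 0.621 and 0.323, followed by Mmp16, Susd4 and Syt5. Its lowest partners were Acot11, Phka1, Acsbg1, Fndc5 and Hadhb, of which Phka1 had −0.430, −0.431 and −0.468. Oprd1 had no partner with a mean r above 0.281 (Homer1) or below −0.305 (Hnrnpul1).

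Cnr1 and Oprl1 also ran in opposite directions against striatal and cortical markers. Each marker list was reduced to an index, the mean of its standardised expressed probes, and with Pdyn and the enzymes this gave 236 relations over the 4 receptors, of which 62 passed: 24 (F2), 27 (HS4) and 11 (HS-CC). The share of all probes that would pass the same test was not computed. Over all named probes the median absolute r with Oprl1 was 0.147 (F2), 0.254 (HS4) and 0.137 (HS-CC). With Cnr1 it was 0.162, 0.162 and 0.116. In HS4 a relation passed at −0.269 (Pdyn with Cnr1), close in size to the HS4 median for Oprl1. The 11 of 20 relations of Oprl1 that passed in HS4 may thus lie near the share over all probes. The spiny neuron index, of 13 probes, followed Cnr1 with r of 0.530 in F2 (n = 71, adjusted p = 0.000236, rho = 0.539) and 0.418 in HS4 (n = 75, adjusted p = 0.00223, rho = 0.354), both by permutation. Single markers named in the following were chosen after their values were seen. With Cnr1 they lay at 0.66, 0.55 and 0.30 for Rgs9, a brake on Gi/o signalling in spiny neurons, and at 0.53, 0.49 and 0.31 for Drd2, the receptor that haloperidol blocks. In all, 11 (F2), 11 (HS4) and 9 (HS-CC) of 13 probes were positive, and both Pdyn probes were negative in every selection. For Oprl1, 12 of 13 probes were negative in F2 and 11 in HS4, with an index r of −0.666 (adjusted p = 0.000236, rho = −0.623) and −0.508 (adjusted p = 0.000236, rho = −0.510). The 5th percentile of r with Oprl1 over all named probes was −0.377 in F2 and −0.545 in HS4, so the HS4 index value lay within it. The 95th percentile with Cnr1 was 0.405 in F2 and 0.369 in HS4, under both index values. In HS-CC the index r was −0.000508 for Oprl1, and 0.23 for Cnr1, which did not pass.

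The cortical glutamatergic index, of 5 probes (Fezf2, Neurod2, Neurod6, Slc17a7 and Tbr1), ran the other way. All 5 were positive with Oprl1 in F2 (0.291 to 0.476) and in HS4 (0.425 to 0.532), and all 5 were negative with Cnr1 (−0.454 to −0.330 in F2 and −0.429 to −0.319 in HS4). Over all named probes the 95th percentile of r with Oprl1 was 0.378 in F2 and 0.533 in HS4, above all 5 HS4 values, and the 5th percentile with Cnr1 was −0.386 and −0.366. In HS-CC 1 of 5 was positive with Oprl1 and 3 of 5 with Cnr1. The mean level of the 5 cortical probes ranged from 9.31 to 10.68 in F2 High, 9.53 to 10.77 in F2 Low, 9.25 to 11.29 in HS4 High, 9.20 to 11.06 in HS4 Low, 9.42 to 11.01 for High arrays of HS-CC and 9.86 to 11.01 for its Low arrays. Given the cortical index, the partial r of Oprl1 with Cnr1 was −0.243 in F2 (adjusted p = 0.175) and −0.452 in HS4 (permutation, adjusted p = 0.00072). Given the spiny neuron index, an alternative added after the data had been seen, it was −0.018 in F2 (adjusted p = 0.933) and −0.452 in HS4 (adjusted p = 0.00126). In bulk tissue, fewer cells of a type and less RNA per cell cannot be told apart.

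Oprl1 also followed the index of GABA interneurons, at r of 0.467 in F2 (adjusted p = 0.000545), 0.751 in HS4 (adjusted p = 0.000236) and 0.328 in HS-CC (permutation, adjusted p = 0.0140), past the threshold in each selection. All marker, enzyme and partner values of Oprl1 are those of ILMN_2807572, and the other Oprl1 probes were not set against them. Of the 9 probes of the index, 5, 6 and 4 were positive in F2, HS4 and HS-CC. Sst, the somatostatin gene, had 0.49, 0.66 and 0.55, and Vip 0.50, 0.55 and −0.05, while Nos1 had −0.07, −0.40 and −0.21. Npy had 0.02, −0.01 and 0.26, Pvalb 0.51, 0.15 and −0.17, Cck 0.40, 0.50 and −0.02, and Th −0.28, −0.15 and −0.08. The Gad1 probes had −0.06 and −0.12 in F2, 0.37 and 0.41 in HS4, and 0.42 and 0.45 in HS-CC. The list thus did not move as a whole with Oprl1. For Cnr1 the GABA interneuron index was at −0.317 in F2 and −0.465 in HS4, both past the threshold, and at 0.06 in HS-CC. The 5th percentile of r with Cnr1 over all named probes was −0.386 in F2 and −0.366 in HS4, so the F2 value lay within it. The mean level of the 9 probes ran from 11.33 to 12.17 in F2 High and from 11.02 to 12.06 in F2 Low arrays.

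The cholinergic interneuron index had the same signs as the spiny neuron index in F2 and HS4, at 0.533 and 0.380 with Cnr1 and at −0.483 and −0.414 with Oprl1, all past the threshold, whereas in HS-CC it was at 0.245 with Oprl1 (permutation adjusted p = 0.0934). Among the glial indices, oligodendrocyte markers ran against Oprl1 at −0.466 in HS4 and −0.330 in HS-CC, astrocyte markers did so at −0.362 in HS-CC, and microglial markers went with Cnr1 at 0.501 in F2, all past the threshold. Over all named probes the 5th percentile of r with Oprl1 was −0.545 in HS4, so the cholinergic and oligodendrocyte values there lay within it. The 95th percentile with Oprl1 in HS-CC was 0.318, above the cholinergic value. The other calls named here lay beyond the percentile of their receptor and selection. The remaining glial values are in the plot of marker indices.

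Among ligands and enzymes, Pdyn rose with Oprk1 in HS4, at r = 0.419 (n = 75, permutation adjusted p = 0.00306, rho = 0.454), and was positive but did not pass in F2 (0.24) and HS-CC (0.14). Pdyn fell as Cnr1 rose, at −0.431 in F2 (adjusted p = 0.00224) and −0.269 in HS4 (adjusted p = 0.0867), and at −0.20 in HS-CC, which did not pass. The HS4 value lay within the 5th percentile of r with Cnr1 over all named probes, −0.366. The Mgll probe ILMN_2700408 ran with Oprl1 at 0.571 and against Cnr1 at −0.532 in HS4 (permutation adjusted p = 0.000236 for both), and against Oprk1 at −0.375 in HS-CC (adjusted p = 0.00388). The other 2 Mgll probes did not share this, with −0.00 and 0.02 for Oprl1 and −0.15 and −0.29 for Cnr1 in HS4, and −0.23 and 0.04 for Oprk1 in HS-CC. In the other selections ILMN_2700408 had 0.16 (F2) and −0.06 (HS-CC) with Oprl1 and −0.06 (F2) and −0.24 (HS-CC) with Cnr1. With Oprk1 it had 0.15 (F2) and 0.22 (HS4). Faah, which breaks down anandamide, followed Oprl1 at 0.467 in F2 (ILMN_2766930, adjusted p = 0.000885) and ran against Cnr1 at −0.315 (adjusted p = 0.0380), beside 0.50 and 0.31 with Oprl1 and −0.28 and −0.13 with Cnr1 for its other 2 probes. The F2 value of ILMN_2766930 with Cnr1 lay within the 5th percentile over all named probes, −0.386. In HS4 and HS-CC, Faah ILMN_2766930 had 0.20 and −0.15 with Oprl1 and −0.19 and 0.07 with Cnr1. The other 2 Faah probes, which were not tested, had 0.41 and 0.64 with Oprl1 in HS4 and 0.03 and 0.27 in HS-CC. With Cnr1 they had −0.26 and −0.40 in HS4 and 0.01 and −0.17 in HS-CC. Differences between selections in these relations were not tested.

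Among the genes that couple the receptors, 3 regulators that speed up the shutting off of Gi/o proteins did not move alike, as a description without a test. Rgs4 had r of 0.651, 0.480 and 0.656 with Cnr1 and −0.410, −0.545 and −0.189 with Oprl1 in F2, HS4 and HS-CC. Rgs9, given above for Cnr1, had −0.587, −0.599 and −0.061 with Oprl1. Rgs14 was negative with Cnr1, at −0.128, −0.227 and −0.362, and had 0.003, −0.072 and 0.390 with Oprl1. Kcnj9, a subunit of the potassium channels that Gi/o proteins open, had −0.291, −0.311 and 0.072 with Cnr1 and 0.369, 0.299 and 0.052 with Oprl1. The 19 coupling probes expressed in every selection were split for Cnr1, with 9, 10 and 13 positive. For Oprl1 most were negative, with 5, 3 and 7 positive and 14, 16 and 12 negative.

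For Oprk1, 5 of 19 relations with the indices and single genes passed in F2, 2 of 20 in HS4 and 3 of 20 in HS-CC. In F2 it ran against the choroid plexus index at −0.457 (adjusted p = 0.000629), with the 5 of its 6 probes expressed in every selection at −0.480 to −0.372, and with the cortical index at 0.382 (permutation adjusted p = 0.0121). The choroid plexus index was at −0.22 in HS4 and −0.15 in HS-CC, which did not pass. In HS-CC Oprk1 followed the spiny neuron index at 0.269 (adjusted p = 0.0663). This lay within the 95th percentile of r with Oprk1 over all named probes, 0.308. The part of tissue makeup in any of these relations was not tested beyond the partial values given above.

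**Figure D5:**
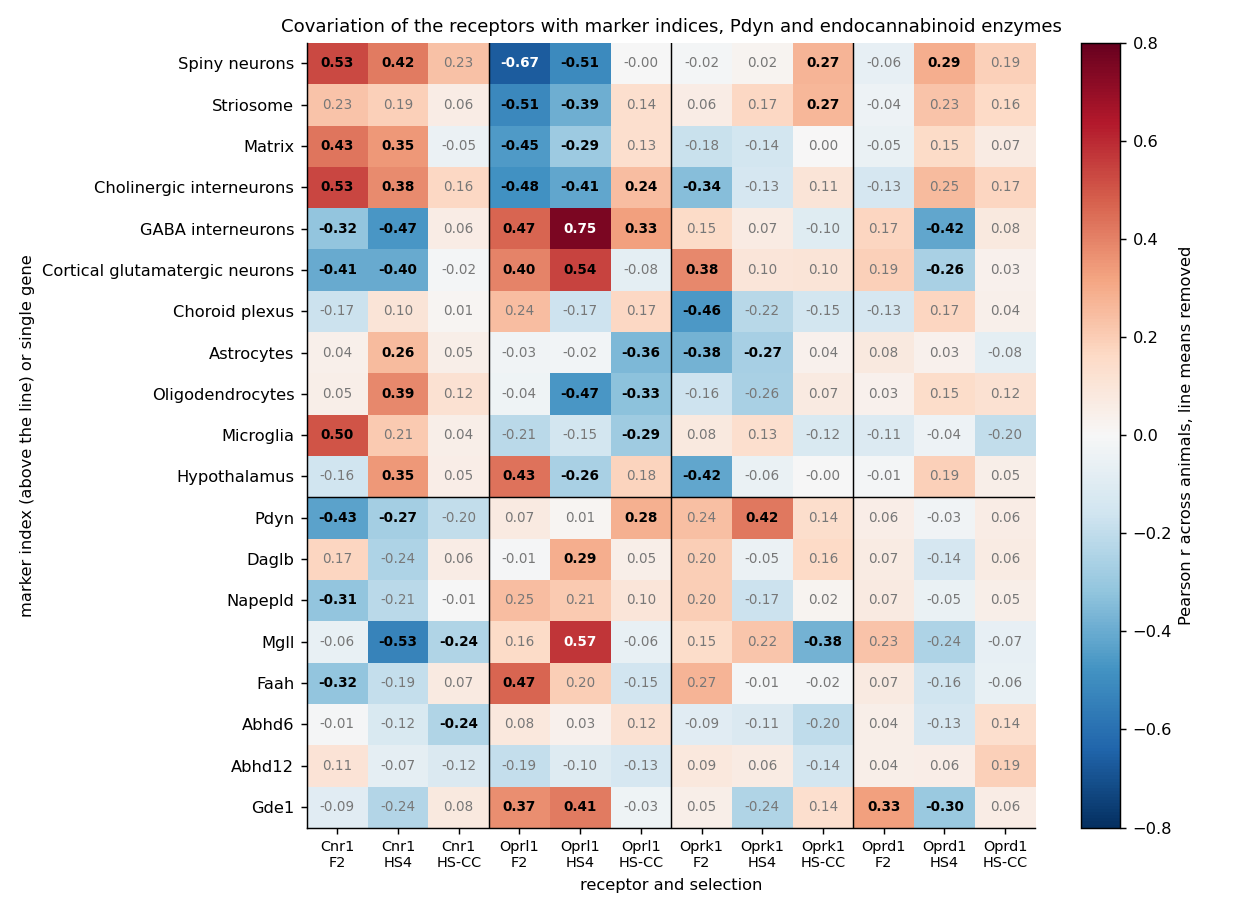
Pearson r across animals, with line means removed, of Cnr1, Oprl1, Oprk1 and Oprd1 (columns, in F2, HS4 and HS-CC) with 11 marker indices and 8 single genes tested in every selection (rows), on a colour scale from −0.8 (blue) to 0.8 (red). Bold values passed a false discovery rate of 0.1; Cnr1 is positive and Oprl1 negative with the spiny neuron index in F2 and HS4, and the signs turn for the cortical and GABA interneuron indices.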

How the data were processed

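Striatal RNA of each mouse was measured on Illumina bead arrays. The deposited values are log2-scale intensities that the authors quantile normalised, with lumi named in the submitters' processing notes; whether this was its log2 or its variance-stabilising transformation is not stated. Groups followed the sample labels. Gene names came from the platform annotation, in which 23978 of 25697 probes had 1 symbol. Signal over background and the number of animals limit the precision.

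High minus Low was fitted within each selection with limma 3.58.1 (lmFit and eBayes, R 4.3.3) and Benjamini-Hochberg adjustment over the expressed probes, at a false discovery rate of 0.1. Contrasts between selections came from a fit of all groups after quantile normalisation over all arrays. Correlations used values minus their line mean, with 100000 two-sided permutations within lines, in Python 3.11.15 (numpy 2.4.6, scipy 1.17.1, pandas 2.3.3). Per gene, the probe with the highest median over background was used. The tests were checked on simulated data.

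The members and gene lists were chosen with earlier results of these data known. Genes named were all member probes, list probes past the threshold or of smallest p (up to 3 per list and selection), and the 5 highest and 5 lowest partners of each member. Further list genes named for their correlations, such as Rgs4, Rgs14, Kcnj9 and Faah, were chosen after their values were seen. Alternatives were other probe sets, background percentile 99, removal of outlying arrays, other normalisation and priors, a permutation test, and sex, family, cortical or choroid plexus terms. Array detection p-values, genotypes and behaviour were not used here. Figures were drawn with matplotlib 3.10.9.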

Additional observations from a re-analysis of the deposited data

Results flagged for a closer look

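The correlation between a pair of receptors differed between selections in 7 of 18 comparisons, by a permutation test that exchanged animals between selections after scaling within line (10000 permutations, Benjamini-Hochberg over the 18, false discovery rate 0.1). This test was added after the data had been seen. The share of other probe pairs whose correlation would differ was not computed. Over all named probes the median absolute r with Oprl1 was 0.147 (F2), 0.254 (HS4) and 0.137 (HS-CC), and with Oprd1 0.091, 0.133 and 0.080. A difference between HS4 and another selection for these receptors is thus not shown to be particular to the pair. The most marked differences were of Oprk1 with Cnr1, where r was −0.243 (HS4) and 0.376 (HS-CC), a difference of −0.618 (permutation p = 0.0001, the smallest that can be reached, adjusted p = 0.0018), and −0.167 (F2) against 0.376 (HS-CC), a difference of −0.542 (adjusted p = 0.0216). The HS4 value of this pair turned to 0.692 when all arrays were kept, so its difference depends on leaving out the outlying arrays. With all arrays the pair had −0.226 in F2 and 0.184 in HS-CC. With Cnr1 ILMN_2637188 in place of the chosen probe it had −0.38 in F2 and 0.03 in HS-CC. The difference between F2 and HS-CC was not tested under these choices.

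Oprl1 with Cnr1 differed by −0.367 between HS4 (−0.563) and HS-CC (−0.196), with an adjusted p of 0.0636, and with all arrays kept the values lay closer together, at −0.474 and −0.326. Oprk1 with Oprl1 differed by 0.314 between HS4 (0.0594) and HS-CC (−0.254), with an adjusted p of 0.0702, and with all arrays kept its values were −0.452 in HS4 and 0.018 in HS-CC. Oprd1, at background on these arrays, differed in its r with Cnr1 by −0.378 between F2 and HS4 and by 0.397 between HS4 and HS-CC, and in its r with Oprl1 by 0.440 between F2 and HS4 (adjusted p = 0.0702 for each). These r come from values scaled within each line and differ from those given above, most in F2, where Oprd1 had 0.141 with Oprl1 against 0.0187 unscaled, and −0.0283 with Cnr1 against 0.0587 unscaled.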

How the results depend on the processing

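No member probe was called under any setting tried, with a smallest limma adjusted p of 0.423 (F2), 0.791 (HS4) and 0.439 (HS-CC), and 165 of 174 member estimates kept their sign. The 9 others, all negative with every array, turned for Oprl1 ILMN_2807572 in HS4 (0.0363, outlying arrays removed repeatedly), Cnr1 ILMN_2637188 in HS4 (0.00179, removed once) and HS-CC (0.000965 once, 0.00465 repeatedly), Oprl1 ILMN_2683352 in HS-CC (0.000114 once, and 0.00308, 0.00486 and 0.000254 with Eif2s3y, cortical and choroid plexus terms) and Cnr1 ILMN_2670261 in F2 (0.000505, cortical term). Over all probes the count called was 141 in F2, against 219 and 339 without outlying arrays (removed once and repeatedly) and 72 at a false discovery rate of 0.05. It was 7 in HS4, against 24 and 99 without outlying arrays and 3 over variable probes, and 516 in HS-CC, against 192 over variable probes and 331 at the stricter rate.

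Covariation depended more on the arrays kept. Pairs past the threshold numbered 1 in F2, against 2 with all arrays, 2 after a single round of removal, 2 in High and 0 in Low animals alone and 0 given the spiny neuron index. They numbered 3 in HS4, against 6 with all arrays and 1 in High animals, 1 in Low animals and 1 given the spiny neuron index, and 1 in HS-CC, against 2 with all arrays, 3 after a single round and 2 in High animals. Index relations past the threshold in HS4 were 43 with all arrays, against 27. Of 144 values for single pairs, 19 turned sign. With all arrays these were Oprd1 with Oprk1 in HS4 (0.234) and HS-CC (−0.232), Oprk1 with Cnr1 in HS4 (0.692), Oprk1 with Oprl1 in HS4 (−0.452) and HS-CC (0.0182), Oprd1 with Cnr1 in F2 (−0.0701) and HS-CC (0.00644), and Oprd1 with Oprl1 in F2 (−0.0296). After a single round they were Oprk1 with Oprl1 (−0.242) and Oprd1 with Oprk1 (0.172) in HS4 and Oprd1 with Cnr1 in F2 (−0.0813). Given the cortical index, Oprd1 with Oprl1 in F2 (−0.0618) and Oprk1 with Oprl1 in HS4 (−0.0137) turned. Given the spiny neuron index, Oprd1 with Oprl1 in F2 (−0.0311) and Oprd1 with Oprk1 in HS-CC (−0.00744) turned. In High animals alone Oprd1 with Cnr1 in F2 (−0.305) and Oprk1 with Oprl1 in HS4 (−0.11) turned, in Low animals alone Oprd1 with Oprl1 in F2 (−0.140), and given the array's mean correlation Oprd1 with Cnr1 in F2 (−0.00959). Apart from the arrays left out, the cause was not tested. Of the other values for single pairs, 103 kept direction and side of the threshold, 13 lost the call and 9 gained it.

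No paired analysis was possible because animal numbers that recur belong to separate animals of different selections. Dim signal limits Oprd1, the second Cnr1 probe and 1 Oprl1 probe. In HS4 it also limits Oprk1 and the chosen Cnr1 probe, and so the HS4 relations of both.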
